A study of Mus musculus with 8 samples.

Results

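CD71, the transferrin receptor that carries iron-loaded transferrin into the cell, was used to sort mouse neutrophils from 2 origins, and the question here was whether the difference between CD71+ and CD71− cells was the same in both. Neutrophils generated in vitro from naive bone marrow, and neutrophils taken from brain tumours grown from the SB28 mouse glioma line, were each sorted by FACS into CD71− and CD71+ cells. Each of the 4 groups held 2 libraries, so all 8 libraries of the series were used. The labels give no strain, age, time in culture or cytokine, and are silent on whether the 2 libraries of a group derive from different mice or cultures. The p-values therefore reflect the spread between these libraries, which may be technical. Of 55450 genes in the deposited table, 15975 had enough counts to be tested in all 4 groups together. For each gene the CD71 effect, the log2 fold change of CD71+ over CD71−, was taken in tumour and in culture, and the culture effect was subtracted from the tumour effect. That difference, on the log2 scale, is positive where CD71+ cells stood relatively higher in tumour than in culture and negative where they stood relatively lower. A gene was called where edgeR's quasi-likelihood test gave an adjusted p under 0.05.

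Neutrophils are short-lived phagocytes that leave the bone marrow with most of their granule proteins already made and with little ribosome production. In tumours they can persist longer and take on suppressive programmes, among them arginase, checkpoint ligands and lipid receptors. Surface CD71 rises on cells that need iron, such as dividing or biosynthetically active cells. The study's title names hypoxia and histone lactylation in tumour neutrophils, which is why genes of those pathways are listed here too.

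Total counts ran from 9598959 to 22615813 per library. Mitochondrial transcripts took 7.09% and 12% of counts in the culture CD71− libraries, 1.45% and 2.17% in culture CD71+, 0.413% and 0.202% in tumour CD71− and 0.829% and 1.04% in tumour CD71+. The culture CD71− pair differed most, with a chi-square per degree of freedom of 69.2 over genes against 12.6 to 19.6 in the other groups, so in no group did the pair differ by sampling noise alone. Levels below are CPM (counts divided by the TMM-scaled library size and brought to a common total), which compare one gene between libraries and not different genes. Tfrc, the gene of CD71 itself, stood at 131 and 94.4 CPM in culture CD71−, 116 and 115 in culture CD71+, 187 and 145 in tumour CD71− and 103 and 108 in tumour CD71+. Its culture effect was 0.03 (adjusted p = 0.94) and its tumour effect −0.65 (adjusted p = 0.0134), so the transcript was called higher in CD71+ in neither origin, and CD71+ below means the libraries labelled so. The tumour fall of Tfrc was −0.08 with total counts (adjusted p = 0.765) and was not called without tumour CD71− library 1 (0.0518), tumour CD71+ library 1 (0.07) or tumour CD71+ library 2 (0.0519). In bulk samples, fewer cells of a type and less RNA per cell cannot be told apart.

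The CD71 effect differed between tumour and culture at 2470 of 15975 genes, or 15.5% of those tested. The difference was positive at 1718 genes (10.8%) and negative at 752 (4.71%), and 2141 of the called genes differed by at least 1 log2 unit. The effects themselves were called at 6950 genes in tumour (43.5%, with 26.2% higher and 17.3% lower in CD71+) and at 2595 genes in culture (16.2%, with 7.88% higher and 8.36% lower). Of 1659 genes called in both effects, 1484 had the same sign and 175 had opposite signs. The called differences fell into 5 classes. Opposite effects, called in both origins with opposite signs, were found at 84 genes that rose with CD71 in tumour and fell in culture and at 91 genes that fell in tumour and rose in culture. Unequal effects of the same sign were found at 174 genes, an effect called in tumour alone at 1731, an effect called in culture alone at 311, and at 79 genes neither effect was called on its own. Over all genes tested the median difference was 0.18, against 0.13 for the median tumour effect and 0.03 for the median culture effect.

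**Figure D1:**
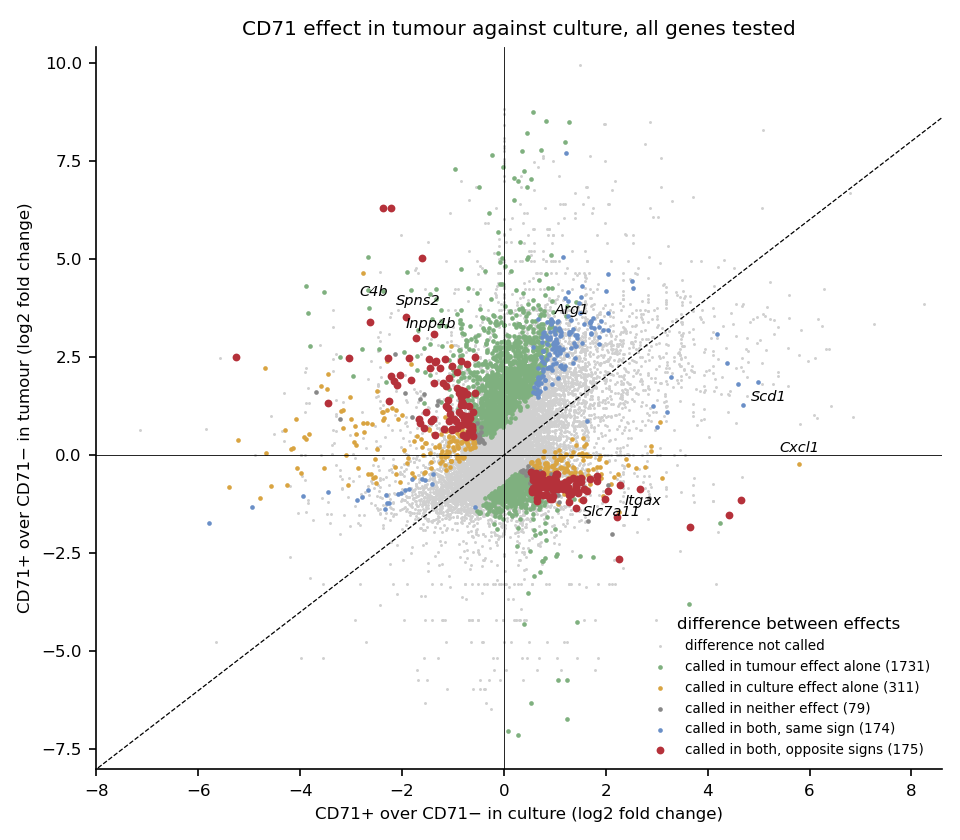
CD71 effect in tumour (y axis, log2 fold change of CD71+ over CD71−) against the CD71 effect in culture (x axis, same scale) for the 15975 genes tested, coloured by the class of the difference, with the dashed line where both effects are equal. The 175 genes with opposite signs lie in the upper left (84) and lower right (91), and the 1731 genes called in the tumour effect alone lie along the vertical axis.

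The signs of the effects and of their difference rest on how the libraries are scaled, and TMM factors ran from 0.602 to 1.49. With DESeq2 size factors the median difference over all genes was 0.00 and 52.1% of the called differences were positive, against 69.6% with TMM and 87.4% with total counts, where the median was 0.43. The median tumour effect was −0.07 with DESeq2 size factors and 0.69 with total counts, and the median culture effect 0.00 and 0.34. All 84 and all 91 genes of the opposite classes were still called in the difference, with the same sign, under both other scalings. The label opposite itself was kept by 63 of the 84 and 85 of the 91 with DESeq2 size factors, but by 38 of the 84 and 6 of the 91 with total counts. With total counts all 91 still rose in culture while 6 fell in tumour, and all 84 still rose in tumour while 38 fell in culture. With DESeq2 size factors all 91 fell in tumour while 85 rose in culture, and all 84 fell in culture while 63 rose in tumour. Leaving out 1 library gave 16 of the 84 and 23 of the 91 as still opposite without culture CD71+ library 1, 30 and 40 without culture CD71+ library 2, 46 and 57 without tumour CD71− library 1, and 33 and 53 without tumour CD71− library 2. It gave 62 and 69 without culture CD71− library 1, 56 and 58 without culture CD71− library 2, 64 and 54 without tumour CD71+ library 1, and 61 and 37 without tumour CD71+ library 2.

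Genes that rose with CD71 in tumour and fell with it in culture included regulators of transcription and of phosphoinositide and lipid signalling. The 84 genes had a median tumour effect of 1.34 and a median culture effect of −1.02, and 79 of them were protein-coding, 94.0% against 77.4% of all genes tested. That share was 94.8% over all 1718 genes with a positive difference, so it was not particular to this class. Maf, a large transcription factor of the AP-1 superfamily used by macrophages and T cells (chromosome 8, 115682942 to 115707794, minus strand, the coordinates of the gene on build mm10 from GENCODE M21), stood at 108 and 92.7 CPM in culture CD71−, 37.8 and 33.9 in culture CD71+, 11.3 and 11.8 in tumour CD71− and 56.4 and 68.9 in tumour CD71+. Its libraries did not overlap in either origin, being high in culture CD71− and tumour CD71+ and low in the other 2 groups. The difference came to 3.92 ± 0.27 (SE, adjusted p = 1.2e-05). Tent5c, a poly(A) polymerase that stabilises transcripts of secreted proteins (chromosome 3, 100451628 to 100489324, minus strand), stood at 31.9 and 30.6 CPM in culture CD71−, 15.6 and 12.6 in culture CD71+, 29.9 and 30.1 in tumour CD71− and 135 and 192 in tumour CD71+. Culture CD71− and tumour CD71− were level for this gene, and CD71+ cells lay below them in culture and above them in tumour, for a difference of 3.60 ± 0.29 (SE, adjusted p = 4.03e-05). Mmp13, a collagenase (chromosome 9, 7272514 to 7283331, plus strand), stood at 78.8 and 45.7 CPM in culture CD71−, 19.4 and 16 in culture CD71+, 3.78 and 2.36 in tumour CD71− and 14.2 and 9.14 in tumour CD71+. The difference was 3.74 ± 0.47 (SE, adjusted p = 0.000467). Mical3, an actin-oxidising enzyme, had 294 and 253 CPM in culture CD71−, where it was far higher than in any tumour library, with 123 and 138 CPM in culture CD71+, 5.31 and 2.91 in tumour CD71− and 17.5 and 14.8 in tumour CD71+. Its difference was 3.04 ± 0.32 (SE, adjusted p = 0.00017). These 4 genes kept opposite calls in 16 of 16 alternative settings.

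The genes of this class described next kept the opposite label in fewer settings, except Ccdc107, which kept it in 16 of 16. Inpp4b, a phosphatase that removes a phosphate from phosphatidylinositol 3,4-bisphosphate, stood at 3.56 and 4.36 CPM in culture CD71−, 0.886 and 1.49 in culture CD71+, 3.5 and 3.19 in tumour CD71− and 21 and 31.9 in tumour CD71+, which puts tumour CD71+ above every other library. The difference was 4.71 ± 0.51 (SE, adjusted p = 0.00018), and without culture CD71+ library 1 the culture fall of −1.38 was no longer called (adjusted p = 0.103). Spns2, the transporter that exports sphingosine 1-phosphate, stood at 6.64 and 6.26 CPM in culture CD71−, 1.56 and 1.83 in culture CD71+, 1.26 and 0.555 in tumour CD71− and 10.3 and 10.7 in tumour CD71+. The difference was 5.45 ± 0.56 (SE, adjusted p = 0.000147). Without culture CD71+ library 1 its culture effect was −1.8 with an adjusted p of 0.0614. Spns2 shares exon sequence on the opposite strand with Mybbp1a, and the strand setting of the counting is not given in the sources used here, so its counts are uncertain. Ccdc107 likewise overlaps Rmrp on the opposite strand, and its difference of 4.08 ± 0.54 (SE, adjusted p = 0.000593) is uncertain for the same reason. Cebpa, the transcription factor that starts granulocyte differentiation, stood at 19.2 and 23.5 CPM in culture CD71−, 12.5 and 9.83 in culture CD71+, 11.6 and 11.7 in tumour CD71− and 42.3 and 59.7 in tumour CD71+. Its tumour rise of 2.13 was larger than its culture fall of −0.93, for a difference of 3.06 ± 0.34 (SE, adjusted p = 0.000213), and the gene overlaps the antisense transcript Gm45091. The culture fall of Cebpa was not called with total counts (adjusted p = 0.0826), without culture CD71− library 2 (0.0578), or without culture CD71+ library 1 (0.0596) or 2 (0.195). Abcc3, an efflux pump for conjugated organic anions, stood at 61.1 and 59.6 CPM in culture CD71−, 33.1 and 34.5 in culture CD71+, 11.6 and 7.35 in tumour CD71− and 51.9 and 48.8 in tumour CD71+. The difference was 3.25 ± 0.30 (SE, adjusted p = 5.64e-05). Its culture fall was not called with total counts (adjusted p = 0.0691) or without culture CD71+ library 1 (0.136) or 2 (0.0919).

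**Figure D2:**
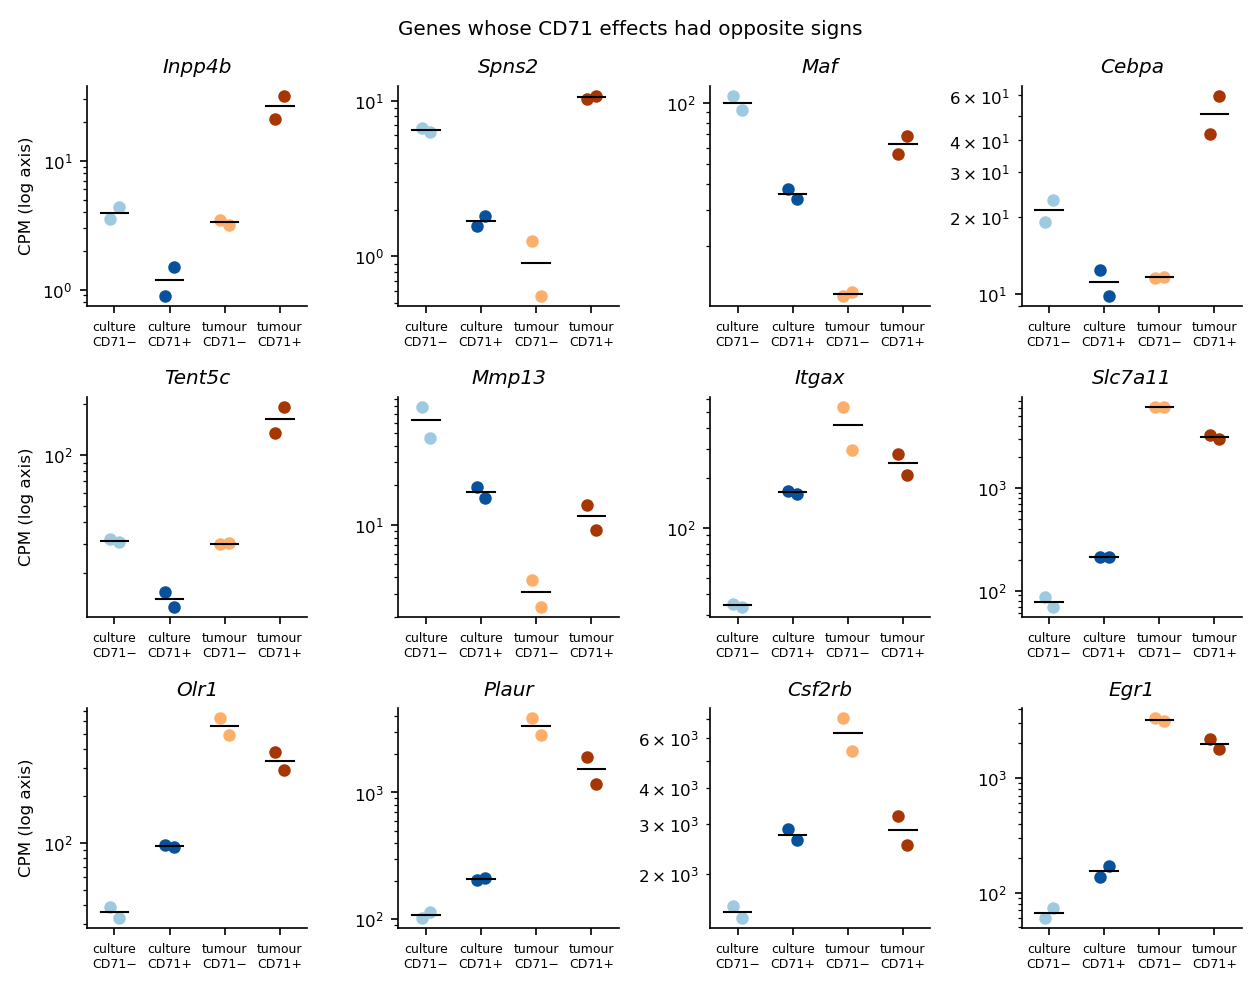
CPM of each library (y axis, log scale, a separate range in each panel) for 12 genes with opposite CD71 effects, with 2 libraries per group as points and the group mean as a line. The first 6 genes, such as Maf and Tent5c, fall from CD71− to CD71+ in culture and rise in tumour, and the last 6, such as Slc7a11 and Olr1, do the reverse from a tumour CD71− level that is their highest.

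Genes that fell with CD71 in tumour and rose with it in culture included surface receptors, redox and lipid genes and cytokine genes, beside many transcripts that do not code for protein. Their 91 members had a median tumour effect of −0.80 and a median culture effect of 0.98, and 62 were protein-coding (68.1%, against 71.3% of all 752 genes with a negative difference). In CD71− cells 88 of the 91 (96.7%) stood higher in tumour than in culture, against 44.8% of all genes tested. In CD71+ cells 78 (85.7%) still stood higher in tumour, against 47.5% of all genes tested. At most of these 91 genes the CD71+ groups of both origins thus lay between the CD71− groups. That ordering follows in part from the rule of the class and is given as a description. At all 91 genes, as at all 84 of the other sign, the CD71− and CD71+ libraries did not overlap in either origin. This also follows in part from the rule of the class, and it held at all 163 unequal genes with a positive difference too. No share over all genes tested is set beside these counts, so they are no result about the class.

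The receptors of this group bind adhesion ligands, lipids, proteases and growth factors. Itgax, the integrin chain CD11c (chromosome 7, 128129547 to 128150657, plus strand), stood at 34.9 and 33.2 CPM in culture CD71−, 168 and 160 in culture CD71+, 536 and 296 in tumour CD71− and 281 and 209 in tumour CD71+. The culture libraries rose by 2.27 with CD71 while the tumour libraries fell by 0.76 on the log2 scale with CD71, for a difference of −3.03 ± 0.35 (SE, adjusted p = 0.000339). The tumour fall of Itgax was not called with total counts (adjusted p = 0.5), without tumour CD71− library 1 (0.154) or without tumour CD71+ library 2 (0.141). Olr1, the receptor LOX-1 for oxidised low-density lipoprotein and a marker of suppressive neutrophils (chromosome 6, 129485244 to 129507165, minus strand), stood at 38.9 and 32.8 CPM in culture CD71−, 96.2 and 94.4 in culture CD71+, 631 and 494 in tumour CD71− and 380 and 293 in tumour CD71+. All 4 groups were apart. The 2 effects differed by −2.15 ± 0.26 (SE, adjusted p = 0.000395); the tumour fall was not called with total counts (adjusted p = 0.448) or without tumour CD71+ library 2 (0.0739). Plaur, the urokinase receptor, stood at 102 and 114 CPM in culture CD71−, 205 and 211 in culture CD71+, 3860 and 2830 in tumour CD71− and 1890 and 1170 in tumour CD71+. The difference was −2.07 ± 0.32 (SE, adjusted p = 0.00136). Its culture rise was not called without culture CD71− library 1 (adjusted p = 0.0534), culture CD71+ library 1 (0.0565) or culture CD71+ library 2 (0.0585), while the tumour fall stayed called with total counts (0.0336). Csf2rb, the shared beta chain of the receptors for GM-CSF, interleukin 3 and interleukin 5 (chromosome 15, 78325752 to 78353847, plus strand), stood at 1540 and 1390 CPM in culture CD71−, 2870 and 2620 in culture CD71+, 7080 and 5420 in tumour CD71− and 3200 and 2520 in tumour CD71+. The CD71+ groups of both origins were close for this gene, between a low culture CD71− and a high tumour CD71−. This gave a difference of −2.03 ± 0.28 (SE, adjusted p = 0.00067). Only leaving out culture CD71+ library 1, among 16 settings, ended an effect of Csf2rb (culture rise of 0.85, adjusted p = 0.0608). Aqp9, a channel for water and glycerol, differed by −1.75 ± 0.26 (SE, adjusted p = 0.00103) and Gpr35, a G-protein-coupled receptor of leukocytes, by −1.68 ± 0.30 (SE, adjusted p = 0.00287). Their opposite label was kept in 13 and 12 of 16 settings. The culture rise of Aqp9 was not called without culture CD71− library 2 (adjusted p = 0.112), culture CD71+ library 1 (0.231) or 2 (0.0945). An effect of Gpr35 was not called with total counts (0.712) or without culture CD71+ library 1 (0.0873), tumour CD71− library 1 (0.0608) or tumour CD71+ library 2 (0.156).

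Genes of cystine uptake and of cholesterol export belonged to the same class. Slc7a11, the cystine and glutamate exchanger that feeds glutathione synthesis (chromosome 3, 49892526 to 50443614, minus strand), stood at 87.3 and 68.8 CPM in culture CD71−, 212 and 214 in culture CD71+, 6060 and 6110 in tumour CD71− and 3260 and 3010 in tumour CD71+. Tumour cells exceeded culture cells by more than the CD71 effect in either origin. The difference came to −2.40 ± 0.25 (SE, adjusted p = 0.000147). With total counts the tumour fall of Slc7a11 was −0.4 with an adjusted p of 0.0937. Abcg1, which exports cholesterol to high-density lipoprotein, stood at 154 and 182 CPM in culture CD71−, 290 and 252 in culture CD71+, 330 and 344 in tumour CD71− and 244 and 198 in tumour CD71+. The difference was −1.30 ± 0.24 (SE, adjusted p = 0.00374). Its tumour fall was not called with total counts (adjusted p = 0.827) or without tumour CD71+ library 2 (0.114), nor its culture rise without culture CD71+ library 1 (0.159).

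Several genes known to be induced by activation were in this class, most of them chosen for description after their values were seen. Of the 19 genes of the immediate early and heat shock list, 1, Egr1, had opposite effects, and 4 were called negative and 1 positive in the difference, against 4.71% and 10.8% of all genes. Egr1, an immediate early transcription factor, stood at 59.8 and 73.9 CPM in culture CD71−, 136 and 172 in culture CD71+, 3330 and 3110 in tumour CD71− and 2180 and 1800 in tumour CD71+. The difference was −1.90 ± 0.27 (SE, adjusted p = 0.000811). Nr4a3, an orphan nuclear receptor induced by activation, stood at 4.33 and 5.63 CPM in culture CD71−, 10.8 and 10.8 in culture CD71+, 1710 and 1490 in tumour CD71− and 1040 and 896 in tumour CD71+. Every tumour library was far above every culture library for this gene. Its difference was −1.86 ± 0.26 (SE, adjusted p = 0.000811). The tumour falls of Egr1 and Nr4a3 were not called with total counts (adjusted p = 0.588 and 0.44) or without tumour CD71+ library 2 (0.0946 and 0.0501). Cd69, an early activation antigen, differed by −2.07 ± 0.28 (SE, adjusted p = 0.000639). Il1rn, the antagonist of interleukin 1, stood at 419 and 408 CPM in culture CD71−, 779 and 634 in culture CD71+, 4110 and 4100 in tumour CD71− and 2760 and 2360 in tumour CD71+. The difference was −1.46 ± 0.25 (SE, adjusted p = 0.00226). Tnf, tumour necrosis factor, stood at 21.8 and 23.9 CPM in culture CD71−, 35.6 and 35.3 in culture CD71+, 656 and 592 in tumour CD71− and 470 and 438 in tumour CD71+. The difference was −1.09 ± 0.22 (SE, adjusted p = 0.00622). Opposite calls were kept in 13 of 16 settings by Cd69 and Il1rn and in 9 by Tnf. Thbs1, thrombospondin 1, was among the most abundant, at 6750 and 4700 CPM in culture CD71−, 10900 and 9210 in culture CD71+, 37800 and 32900 in tumour CD71− and 23700 and 19100 in tumour CD71+. The difference was −1.54 ± 0.31 (SE, adjusted p = 0.0055), with opposite calls in 12 of 16 settings. Thbs1 overlaps the antisense transcript Gm29233. Hip1, a clathrin adaptor, differed by −2.20 ± 0.25 (SE, adjusted p = 0.000266) and Wfdc17, a secreted protein with a whey acidic protein domain, by −2.48 ± 0.36 (SE, adjusted p = 0.000896), with opposite calls in 14 and 13 settings. For Cd69, Il1rn, Tnf, Thbs1, Hip1 and Wfdc17 the tumour fall was not called with total counts, where the tumour effect of Tnf was 0.10 (adjusted p = 0.635), nor that of Tnf with no filter (0.0771). Without 1 library an effect was lost by Cd69 (tumour CD71− library 2, adjusted p = 0.109; tumour CD71+ library 1, 0.104), Il1rn (culture CD71+ library 1, 0.138; tumour CD71+ library 2, 0.0806), Hip1 (tumour CD71+ library 2, 0.0886) and Wfdc17 (tumour CD71− library 2, 0.0796; tumour CD71+ library 2, 0.145). Thbs1 lost one without culture CD71− library 2 (0.055), culture CD71+ library 1 (0.18) or tumour CD71+ library 2 (0.144), and Tnf without either culture CD71+ library (0.121 and 0.0959), tumour CD71− library 1 (0.0513) or either tumour CD71+ library (0.0765 and 0.145). Their differences stayed called in all 16 settings.

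Promoter sequence was described for both opposite classes because AP-1, the dimer of Fos and Jun proteins, binds promoters of activation-induced genes. That the members of a class moved together is the rule of the class and not a finding. RefSeq promoters on build GRCm38.p6, each 300 bases long from 250 before to 50 after a start, were found for 55 of the 91 and 65 of the 84 genes. The AP-1 site, TGACTCA or its reverse complement TGAGTCA on either strand, was present in 10 of 72 promoters of the genes that fell in tumour and rose in culture (13.9%). It was present in 7 of 80 promoters of the other sign (8.75%), in 3.96% of the promoters of genes tested and in 5.2% of all 32851 promoters of the table. Promoters of 1 gene can overlap, so these shares count some bases more than once. The hypoxia response core, ACGTG or GCGTG, was found in 47.2% of the promoters that fell in tumour and rose in culture, in 66.2% of those of the other sign and in 59.7% of those of genes tested. The median GC content of these 3 sets was 55.7%, 62.0% and 60.0%. A match is a description of letters and not a site of binding. Shown here are 4 upstream windows from genes described above that fell in tumour and rose in culture, with the AP-1 site in capitals and, last, 1 from Mmp13, which moved the other way.
Itgax, chr7:128129464-128129530, plus strand: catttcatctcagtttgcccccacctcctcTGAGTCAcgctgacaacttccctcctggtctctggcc
Olr1, chr6:129507189-129507255, minus strand: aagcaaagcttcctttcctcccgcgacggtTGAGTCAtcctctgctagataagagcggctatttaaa
Plaur, chr7:24462384-24462450, plus strand: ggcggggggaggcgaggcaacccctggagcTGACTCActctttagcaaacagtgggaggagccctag
Il1rn, chr2:24336689-24336755, plus strand: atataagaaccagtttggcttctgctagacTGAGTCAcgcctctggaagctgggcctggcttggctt
Mmp13, chr9:7272449-7272513, plus strand: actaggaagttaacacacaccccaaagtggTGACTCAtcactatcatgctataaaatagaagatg
The sites began 56, 60, 69, 141 and 35 bases before the RefSeq start. The same 7 letters thus stood upstream of genes of both signs.

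Unequal effects of the same sign were mostly larger rises in tumour. Of the 163 genes with a positive difference, 143 rose in both origins and more so in tumour, and 20 fell in both and more so in culture. Arg1, arginase 1, which depletes arginine and marks suppressive myeloid cells (chromosome 10, 24915221 to 24927484, minus strand), stood at 241 and 338 CPM in culture CD71−, 588 and 451 in culture CD71+, 37.3 and 21.4 in tumour CD71− and 333 and 287 in tumour CD71+. Tumour CD71− was the low group, culture CD71− and tumour CD71+ overlapped and culture CD71+ was highest, with a tumour effect of 3.40, a culture effect of 0.84 and a difference of 2.56 ± 0.36 (SE, adjusted p = 0.000883). The culture rise of Arg1 was not called without culture CD71− library 1 (0.64, adjusted p = 0.142) or culture CD71+ library 1 (0.65, 0.249), while the difference was called in 16 of 16 settings. Tmem119, a microglial surface protein, rose by 3.03 in tumour and 1.11 in culture, for a difference of 1.92 ± 0.31 (SE, adjusted p = 0.00178). Mrc1, a mannose-binding endocytic receptor of macrophages, stood at 1.19 and 1.72 CPM in culture CD71−, 8.46 and 7.99 in culture CD71+, 4.47 and 3.75 in tumour CD71− and 67.3 and 89.6 in tumour CD71+. The difference was 1.72 ± 0.40 (SE, adjusted p = 0.0117) and was not called without culture CD71− library 2 (adjusted p = 0.0516), tumour CD71− library 1 (0.0515) or tumour CD71− library 2 (0.0811). Ccl2, a monocyte chemoattractant, differed by 2.07 ± 0.45 (SE, adjusted p = 0.00841), and the difference was not called without tumour CD71− library 2 (0.0594), nor its culture rise without culture CD71− library 1 (0.162), culture CD71+ library 1 (0.364) or either tumour CD71− library (0.0529 and 0.0527). Msr1, a scavenger receptor, differed by 1.14 ± 0.26 (SE, adjusted p = 0.0111), and the difference was not called without culture CD71+ library 2 (0.0718) or tumour CD71− library 2 (0.0951).

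A larger rise in culture was rarer, at 10 of the 11 unequal genes with a negative difference. H2-Eb1, the beta chain of an MHC class II molecule, stood at 2.13 and 3.18 CPM in culture CD71−, 25.3 and 22.8 in culture CD71+, 50.9 and 35.4 in tumour CD71− and 88.1 and 97.2 in tumour CD71+. CD71+ exceeded CD71− in both origins without overlap, by 3.21 in culture and 1.10 in tumour, for a difference of −2.10 ± 0.33 (SE, adjusted p = 0.00151). Scd1, the desaturase that makes oleate, stood at 0.771 and 0.726 CPM in culture CD71−, 20.6 and 18.7 in culture CD71+, 10.9 and 5.83 in tumour CD71− and 30.3 and 9.99 in tumour CD71+, where the tumour groups overlapped. Its difference was −3.43 ± 0.73 (SE, adjusted p = 0.00989), not called without culture CD71− library 2 (−3.4, adjusted p = 0.0508), and its tumour rise was not called in 7 of the 8 fits without 1 library (adjusted p from 0.0553 without culture CD71+ library 1 to 0.62 without tumour CD71+ library 1; called without tumour CD71+ library 2). The tumour rise of Scd1 was also not called with DESeq2 size factors (1.05, adjusted p = 0.0746) or by the Wald test (1.07, 0.0514).

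The largest class held 1271 genes with a rise called in tumour alone, and macrophage, complement and translation genes were among them. Cx3cr1, the fractalkine receptor of monocytes and microglia (chromosome 9, 119901616 to 120069879, minus strand), stood at 4.33 and 7.17 CPM in culture CD71−, 7.08 and 5.05 in culture CD71+, 22 and 26.1 in tumour CD71− and 277 and 327 in tumour CD71+. Only the tumour CD71+ libraries were high, and the culture effect was 0.11. The 2 effects differed by 3.54 ± 0.35 (SE, adjusted p = 0.000123); the gene overlaps the antisense transcript Gm33858. Apoe, apolipoprotein E, stood at 23.9 and 25.7 CPM in culture CD71−, 29.1 and 20.6 in culture CD71+, 68.2 and 79.2 in tumour CD71− and 765 and 701 in tumour CD71+. The difference was 3.31 ± 0.27 (SE, adjusted p = 4.03e-05). C3ar1, the receptor for complement fragment C3a, stood at 197 and 148 CPM in culture CD71−, 262 and 205 in culture CD71+, 16.5 and 16.5 in tumour CD71− and 169 and 187 in tumour CD71+. For C3ar1 tumour CD71− was the low group and tumour CD71+ lay within the range of culture CD71−. This gave a difference of 2.99 ± 0.27 (SE, adjusted p = 5.64e-05). Fcgr1, the high-affinity IgG receptor, differed by 2.52 ± 0.37 (SE, adjusted p = 0.000918), Csf1r, the receptor for colony-stimulating factor 1, by 1.45 ± 0.24 (SE, adjusted p = 0.00195), and Slc39a14, a transporter of zinc and non-transferrin iron, by 1.61 ± 0.27 (SE, adjusted p = 0.00203). These 6 differences were called in 16 of 16 settings. With total counts a culture rise was also called for C3ar1 (0.74, adjusted p = 0.0167), Fcgr1 (0.80, 0.0471) and Csf1r (0.76, 0.00791), which makes their effects unequal there.

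Falls called in tumour alone were found at 460 genes. Cd14, the co-receptor for lipopolysaccharide, stood at 159 and 190 CPM in culture CD71−, 262 and 248 in culture CD71+, 5070 and 4780 in tumour CD71− and 3170 and 1980 in tumour CD71+. The tumour libraries fell by 0.94 on the log2 scale and the culture effect was 0.54, for a difference of −1.48 ± 0.30 (SE, adjusted p = 0.00615). Trem1, which amplifies inflammatory signalling in neutrophils, stood at 97.8 and 63.5 CPM in culture CD71−, 109 and 95.4 in culture CD71+, 2650 and 2640 in tumour CD71− and 1190 and 1260 in tumour CD71+. The difference was −1.45 ± 0.28 (SE, adjusted p = 0.00464). Traf1, an NF-kB target that curbs receptor signalling, differed by −1.19 ± 0.25 (SE, adjusted p = 0.00757). The differences of Cd14, Trem1 and Traf1 were called in 16 of 16 settings, whereas the tumour falls of Cd14 and Traf1 were not called with total counts (adjusted p = 0.129 and 0.283) and that of Cd14 not without tumour CD71+ library 2 (0.0549). With total counts a culture rise was called for Cd14 (0.86, adjusted p = 0.00782), Trem1 (0.64, 0.0469) and Traf1 (0.71, 0.0131), so the class of these genes depends on the scaling.

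With TMM scaling, rises called in culture alone included chemokines, secreted proteins and a lysosomal protein. Of 311 genes called in the culture effect alone, 141 rose in culture and 170 fell. Spp1, osteopontin, stood at 82.7 and 74.3 CPM in culture CD71−, 690 and 462 in culture CD71+, 670 and 729 in tumour CD71− and 757 and 750 in tumour CD71+. Culture CD71+ library 1 lay within the range of the tumour libraries and culture CD71+ library 2 below it. The tumour libraries did not change with CD71 beyond their spread (0.11, adjusted p = 0.679). The difference came to −2.77 ± 0.28 (SE, adjusted p = 0.000123). Spp1 shares exons on its strand with Gm42793, so its counts are uncertain. Ccl4, a chemokine for monocytes and lymphocytes, stood at 9.31 and 8.53 CPM in culture CD71−, 42.9 and 28.9 in culture CD71+, 1420 and 1620 in tumour CD71− and 1380 and 1320 in tumour CD71+. The difference was −2.18 ± 0.28 (SE, adjusted p = 0.000567). Il1a, interleukin 1 alpha, differed by −2.11 ± 0.27 (SE, adjusted p = 0.00048) and Fosb, a partner of Jun in AP-1, by −2.10 ± 0.36 (SE, adjusted p = 0.00237). Cd68, a lysosomal membrane protein, differed by −1.60 ± 0.30 (SE, adjusted p = 0.00396), Hspa5, the endoplasmic reticulum chaperone BiP, by −1.19 ± 0.25 (SE, adjusted p = 0.00766), and Cfp, the complement activator properdin, by −1.26 ± 0.29 (SE, adjusted p = 0.0121). S100a9, a subunit of the neutrophil protein calprotectin, fell in culture, at 1120 and 1570 CPM in culture CD71−, 350 and 273 in culture CD71+, 1530 and 1700 in tumour CD71− and 1220 and 1090 in tumour CD71+. The difference was 1.62 ± 0.28 (SE, adjusted p = 0.00239). These 8 differences were called in 16 of 16 settings. The culture rise of Hspa5 was not called without culture CD71+ library 1 (adjusted p = 0.125), nor that of Cfp without culture CD71− library 1 (0.0509) or culture CD71+ library 1 (0.102). The class of 7 of these genes moved with the scaling. With DESeq2 size factors the tumour fall was called for Il1a (−0.58, adjusted p = 0.018), Fosb (−0.51, 0.0285), Cd68 (−0.59, 0.0347), Hspa5 (−0.63, 0.00947) and Cfp (−0.63, 0.0252), which are then opposite, and for S100a9 (−0.71, 0.0105), which is then unequal. The opposite label was given in 4 of 16 settings for Il1a, 2 for Fosb and Cd68, 5 for Hspa5 and 3 for Cfp. With total counts a tumour rise was called for Spp1 (0.67, adjusted p = 0.0129).

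Mitochondrially encoded transcripts fell with CD71 in culture and did not fall in tumour. Of 13 mitochondrial mRNAs tested, 9 were called with a positive difference (69.2% against 10.8% of all genes) and none with a negative one. The median difference was 3.32, with a median culture effect of −2.93 and a median tumour effect of 0.75. The summed level of the 13 mRNAs was 42900 and 81200 CPM in culture CD71−, 9100 and 13100 in culture CD71+, 4690 and 2360 in tumour CD71− and 7350 and 9150 in tumour CD71+. mt-Co1, which encodes a core subunit of cytochrome c oxidase, stood at 25000 and 47400 CPM in culture CD71−, 6490 and 8660 in culture CD71+, 3400 and 1730 in tumour CD71− and 5910 and 7490 in tumour CD71+. It was opposite in both effects. The difference was 3.64 ± 0.51 (SE, adjusted p = 0.00174), and its tumour rise was not called without tumour CD71− library 2 (0.87, adjusted p = 0.124). mt-Cytb, cytochrome b, was called in culture alone. The difference was 3.93 ± 0.62 (SE, adjusted p = 0.00529). Between 8 and 10 of the 13 were called without any 1 library, and 9 with the replicate block. Without tumour CD71− library 2 the median tumour effect of the mitochondrial mRNAs was 0.19. Nuclear-encoded subunits of the respiratory chain did not share the culture fall: 9 of 33 were called, all positive, or 27.3% against 10.8% of all genes. Their median difference was 0.81 against 0.18 over all genes, with a median tumour effect of 0.83 and a median culture effect of −0.03. Ndufa9, a complex I subunit, stood at 14.2 and 17.2 CPM in culture CD71−, 16.9 and 13.8 in culture CD71+, 2.1 and 3.05 in tumour CD71− and 10.3 and 13.8 in tumour CD71+. The difference was 2.25 ± 0.42 (SE, adjusted p = 0.00384). This gene overlaps 1700018A23Rik on the opposite strand. That count of 9 fell to 1 without culture CD71+ library 2 or tumour CD71− library 1, to 2 without culture CD71− library 2, culture CD71+ library 1 or tumour CD71− library 2, to 4 without tumour CD71+ library 2, to 4 with DESeq2 size factors and to 5 with the replicate block, and rose to 16 without culture CD71− library 1 and with total counts.

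Ribosome production genes were called mostly on the positive side. Of 28 genes of Myc and ribosome biogenesis, 14 were called positive and 1 negative, against the 10.8% and 4.71% of all genes, and the median difference was 1.30, with medians of 1.51 in tumour and 0.30 in culture. Npm1, nucleophosmin, stood at 119 and 130 CPM in culture CD71−, 185 and 159 in culture CD71+, 18.6 and 19 in tumour CD71− and 85 and 93.1 in tumour CD71+. Tumour CD71− was low and the other groups were nearer to each other. The 2 effects differed by 1.77 ± 0.24 (SE, adjusted p = 0.000599). Mybbp1a, a nucleolar protein, differed by 1.99 ± 0.33 (SE, adjusted p = 0.00186) and is uncertain through its overlap with Spns2. Heatr1, a factor for processing of ribosomal RNA that overlaps Lgals8, went the other way, by −1.10 ± 0.24 (SE, adjusted p = 0.00898). With DESeq2 size factors its tumour fall was called too (−0.63, adjusted p = 0.00696). Leaving out a library changed the positive count to 7 and 6 without culture CD71+ library 1 and 2, to 6 and 4 without tumour CD71− library 1 and 2, and to 9 without tumour CD71+ library 1. Of 22 cytosolic ribosomal proteins 5 were positive, with a median difference of 0.73 that was 0.23 without culture CD71− library 2, and Rpl22 differed by 1.65 ± 0.28 (SE, adjusted p = 0.00209). Without 1 library the ribosomal protein count ran from 1, without culture CD71+ library 2 or either tumour CD71− library, to 17, without culture CD71− library 1; it was 3 without culture CD71− library 2 or culture CD71+ library 1, 2 without tumour CD71+ library 2, 3 with DESeq2 size factors, 8 with no filter and 10 with total counts. Of 30 cell cycle genes 4 were called, all positive (13.3% against a background of 15.5%), which is no result about the list. These 4 were subunits of the MCM helicase that opens replication origins. That count was 0 without culture CD71+ library 1, 1 without culture CD71+ library 2, either tumour CD71− library or tumour CD71+ library 2, 2 without culture CD71− library 2, 10 without culture CD71− library 1 and 7 with total counts.

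**Figure D3:**
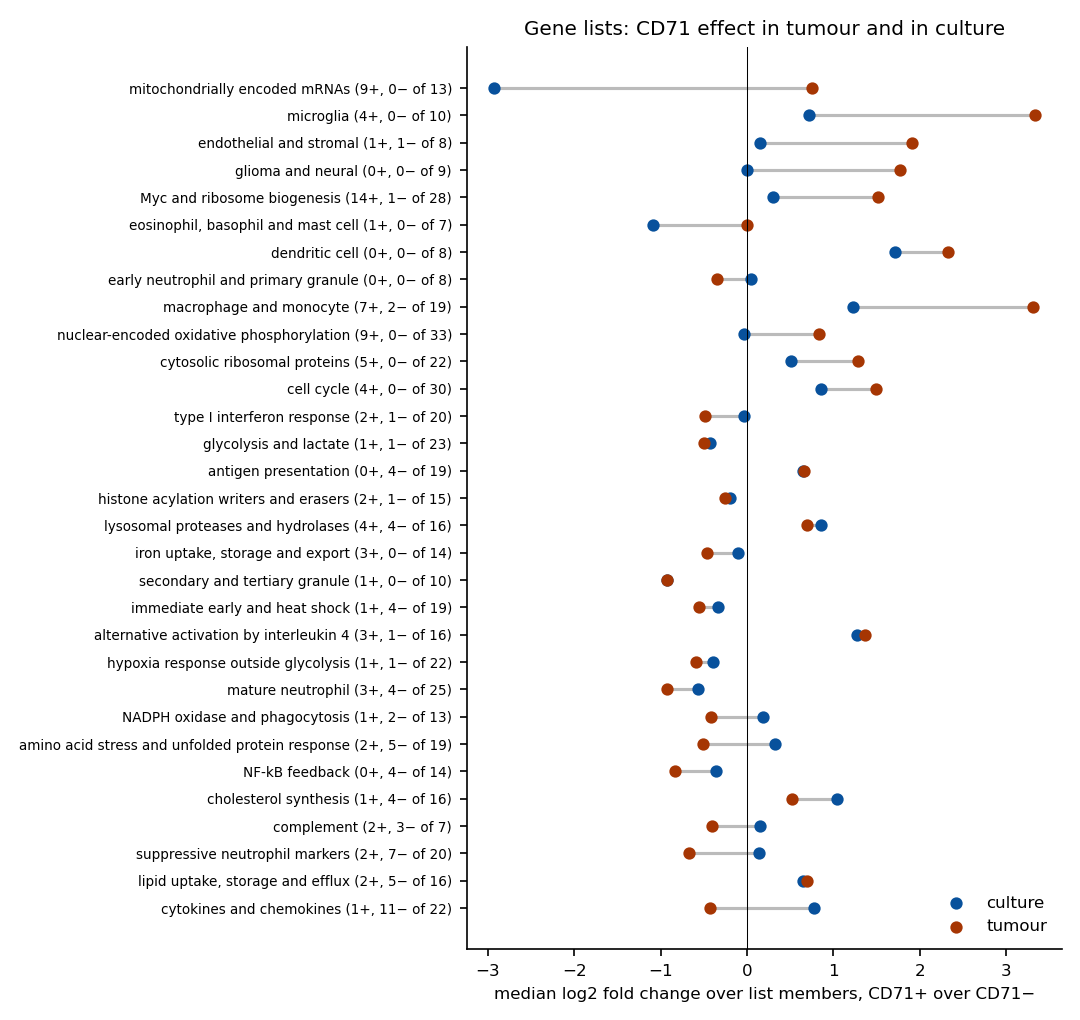
Median CD71 effect (x axis, log2 fold change of CD71+ over CD71−) in culture (blue) and in tumour (brown) over the tested members of each gene list with at least 5 of them, ordered by the median difference, with the number called positive and negative in brackets. Mitochondrial mRNAs (median difference 3.32) are at the top and cytokines and chemokines (−0.90) at the bottom, where with TMM scaling the tumour median is negative (0.13 with total counts) and the culture median positive.

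Cytokine genes stood on the other side. Of 22 cytokines and chemokines 11 were called negative and 1, Ccl2, positive, or 54.5% in all, against 4.71% negative and 10.8% positive of all genes. Their median difference was −0.90, with medians of −0.43 in tumour and 0.77 in culture, and the tumour median was 0.13 with total counts. The negative members comprised interleukin 1 family genes, CC and CXC chemokines, Tnf and Csf1, and Ccl6, a CC chemokine, differed by −1.41 ± 0.26 (SE, adjusted p = 0.00393). Ccl6 kept its difference in 16 of 16 settings and its opposite label in 11; the label was lost with total counts (tumour −0.07, adjusted p = 0.789) and without culture CD71+ library 1 (culture 0.57, 0.199) or either tumour CD71+ library (tumour, 0.0729 and 0.0786), among others. The negative count was 6 without culture CD71+ library 1, 7 without culture CD71+ library 2, tumour CD71+ library 1 or tumour CD71+ library 2, and 7 with total counts, and Ccl2 was not called without tumour CD71− library 2. Of 20 suppressive neutrophil markers 7 were negative and 2 positive (45.0% against 15.5% of all genes), with a median difference of −0.76, −0.48 with total counts, or −0.53 with the 2 genes that had a group at 0 set to the level of 3 counts: Spp1, Olr1, Cd14 and Cd274 were among the negative, and Arg1 and Havcr2 were the positive. That negative count was 4 without culture CD71+ library 1 or 2, tumour CD71− library 1 or tumour CD71+ library 2, and 4 with total counts, and the positive count was 1 without culture CD71+ library 1 or tumour CD71− library 1. Among 14 NF-kB feedback genes 4 were negative and none positive (28.6% called). This count was 1 without culture CD71+ library 1 or 2, tumour CD71− library 2 or tumour CD71+ library 2, 1 with total counts, and 6 without culture CD71− library 1. Of 16 cholesterol synthesis genes 4 were negative and 1 positive (31.2% called), with a median difference of −0.61, which was −0.37 with total counts and −0.21 with the strict filter. The negative count was 2 without culture CD71+ library 1 or 2 and 6 without tumour CD71+ library 1 or with DESeq2 size factors, and the positive member was not called without either culture CD71+ library, either tumour CD71− library or tumour CD71+ library 1.

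Of 12 genes of the study's own question, 7 were not called in the difference; Arg1, Cd14 and Olr1 are described above. Cd274, the checkpoint ligand PD-L1, stood at 250 and 187 CPM in culture CD71−, 286 and 255 in culture CD71+, 1770 and 1460 in tumour CD71− and 1080 and 940 in tumour CD71+. It overlaps AC119228.1 on the opposite strand. Its difference was −0.99 ± 0.27 (SE, adjusted p = 0.0237). The difference of Cd274 was not called with total counts (adjusted p = 0.0717) or without culture CD71+ library 1 (0.0993), culture CD71+ library 2 (0.0522), tumour CD71− library 1 (0.0558) or tumour CD71+ library 2 (0.0903). Slc2a1, the glucose transporter GLUT1, stood at 542 and 557 CPM in culture CD71−, 556 and 502 in culture CD71+, 2150 and 1740 in tumour CD71− and 1140 and 744 in tumour CD71+. The difference was −0.99 ± 0.29 (SE, adjusted p = 0.0343); the gene overlaps Gm12868. Its difference was not called with total counts (0.0678) or without culture CD71+ library 1 (0.114) or 2 (0.067), tumour CD71− library 1 (0.0886) or 2 (0.0506), or tumour CD71+ library 2 (0.131). Vegfa, the angiogenic growth factor, had effects of −0.59 in tumour (adjusted p = 0.0418) and −0.68 in culture (adjusted p = 0.0492), and a difference of 0.09 ± 0.31 (SE, adjusted p = 0.889). The tumour fall of Vegfa was not called with total counts (−0.03, adjusted p = 0.927), the strict filter (0.0683), or without either culture CD71+ library (0.0517 and 0.0504), tumour CD71− library 1 (0.206) or tumour CD71+ library 2 (0.278). Its culture fall was not called with total counts (−0.36, adjusted p = 0.219), the strict filter (0.0697), non-robust dispersions (0.0587) or the replicate block (0.0537). Leaving out culture CD71− library 2 (0.173), either culture CD71+ library (0.302 and 0.157), either tumour CD71− library (0.0539 and 0.0552) or tumour CD71+ library 2 (0.0501) ended it too. The difference was −0.20 ± 0.27 (SE, adjusted p = 0.662) for Ldha, lactate dehydrogenase A, −0.41 ± 0.24 (SE, adjusted p = 0.267) for Hif1a, the oxygen-regulated transcription factor, and 0.12 ± 0.25 (SE, adjusted p = 0.785) for Ep300, a histone acetyltransferase. It was −0.21 ± 0.25 (SE, adjusted p = 0.613) for Il1b, interleukin 1 beta, −0.88 ± 0.46 (SE, adjusted p = 0.215) for Tnfrsf10b, the receptor for the death ligand TRAIL, and 1.18 ± 0.39 (SE, adjusted p = 0.0572) for Ly6g, the neutrophil marker. Tfrc had a difference of −0.68 ± 0.27 (SE, adjusted p = 0.0948), which was called with DESeq2 size factors (−0.86, 0.0392), by the Wald test (−0.84, 0.0232) and without culture CD71− library 1 (−0.97, 0.0129). Ly6g was called with total counts (1.43, 0.024), with no filter (1.15, 0.0128), without culture CD71− library 2 (1.34, 0.0444) and without tumour CD71+ library 1 (1.43, 0.0369). A missed threshold does not show equal effects. Of 22 hypoxia genes outside glycolysis, 1 was positive and 1, Plaur, negative, and of 23 genes of glycolysis and lactate, 1 was positive and 1, Slc2a1, negative; these 9.09% and 8.7% lie below the background of 15.5%, and across settings each of these counts stayed between 0 and 4.

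Iron handling is the function of CD71 itself. Of 14 tested genes for iron uptake, storage and export 3 were called positive and none negative: Slc39a14, described above, Slc11a2 and Aco1. That is 21.4% against 15.5% of all genes, and the count was 1 of 14 in 5 of the 8 fits without 1 library. Slc11a2, the transporter that moves iron out of endosomes after transferrin uptake, stood at 4.15 and 3.36 CPM in culture CD71−, 9.25 and 9.69 in culture CD71+, 5.73 and 5.83 in tumour CD71− and 35 and 41.3 in tumour CD71+. CD71+ exceeded CD71− in both origins without overlap. This gave a difference of 1.40 ± 0.36 (SE, adjusted p = 0.0181). Aco1, which as an iron-regulatory protein stabilises Tfrc mRNA when iron is scarce, stood at 12.8 and 14.9 CPM in culture CD71−, 26.7 and 23 in culture CD71+, 3.91 and 3.47 in tumour CD71− and 15.9 and 18.4 in tumour CD71+. The difference was 1.36 ± 0.35 (SE, adjusted p = 0.0197). Without either culture CD71+ library, either tumour CD71− library or tumour CD71+ library 2 only Slc39a14 of the list was called, with adjusted p for Slc11a2 of 0.0982, 0.0828, 0.0889, 0.0871 and 0.0666 and for Aco1 of 0.0794, 0.13, 0.0816, 0.119 and 0.0571. The culture rise of Aco1 was not called without culture CD71− library 1 (adjusted p = 0.0638) or either culture CD71+ library (0.243 and 0.0912). Slc11a2 overlaps Gm5475 on the opposite strand. Slc40a1, the iron exporter ferroportin, fell in both origins, at 68.3 and 50.6 CPM in culture CD71−, 26 and 23 in culture CD71+, 225 and 226 in tumour CD71− and 104 and 102 in tumour CD71+. Its effects were −1.13 in tumour (adjusted p = 0.000291) and −1.28 in culture (adjusted p = 0.00037). The difference came to 0.15 ± 0.25 (SE, adjusted p = 0.735). Fth1, the ferritin heavy chain, had a difference of −0.22 ± 0.28 (SE, adjusted p = 0.65).

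The macrophage, microglial and dendritic cell lists had positive median CD71 effects in both origins. So did the lymphocyte list (3.2 in tumour and 0.67 in culture, 4 members tested) and the megakaryocyte and platelet list (1.33 and 1.17, 4 tested). The endothelial and stromal list did too (1.91 and 0.15, 8 tested). Not every list of other cells did: eosinophil, basophil and mast cell markers had medians of 0.00 in tumour and −1.09 in culture. Of 20 macrophage and monocyte markers 19 were tested, 7 were called positive and 2 (Cd68 and Gpnmb) negative, against 10.8% and 4.71% of all genes. Their median difference was 0.84, or 1.37 with the 3 genes that had a group at 0 set to the level of 3 counts, and 1.33 without culture CD71− library 1. The CD71 effect itself was called higher at 16 of the 19 in tumour and 11 in culture, against 26.2% and 7.88% of all genes, and lower at none. Gpnmb was not called without culture CD71+ library 1 (adjusted p = 0.0969), tumour CD71− library 1 (0.0539) or tumour CD71+ library 2 (0.0645). The summed level of the macrophage and monocyte markers was 914 and 988 CPM in culture CD71−, 1770 and 1490 in culture CD71+, 952 and 944 in tumour CD71− and 4130 and 4510 in tumour CD71+. Of 10 microglial markers 4 were called positive and none negative, with a median difference of 2.45 and summed levels of 77.5 and 78.2, 176 and 143, 220 and 262, and 1180 and 1680 CPM in the same order. They were called higher at 9 of 10 in tumour and 5 in culture. Of 10 dendritic cell markers 8 were tested and none was called in the difference by edgeR or DESeq2, with 1 at an unadjusted p under 0.05, while 6 were called higher in tumour and 4 in culture. Dendritic cell markers summed to 11.6 and 16.6 CPM in culture CD71−, 142 and 132 in culture CD71+, 12.2 and 8.05 in tumour CD71− and 62.8 and 42.7 in tumour CD71+. The median difference of this list was 0.90. Olfml3, a secreted protein of microglia, stood at 18.3 and 9.17 CPM in culture CD71−, 18.2 and 17.2 in culture CD71+, 8.39 and 12.8 in tumour CD71− and 126 and 161 in tumour CD71+. The difference was 3.41 ± 0.41 (SE, adjusted p = 0.000467), and Ms4a7, a tetraspan protein of macrophages, differed by 3.96 ± 0.70 (SE, adjusted p = 0.00284). The sum of 25 mature neutrophil markers was 10700 and 10000, 6940 and 6050, 52900 and 52500, and 26700 and 24500 CPM, lower in CD71+ in both origins. In the difference 3 of the 25 were positive and 4 negative (28.0% called against 15.5% of all genes). All genes gave 10.8% positive and 4.71% negative, so the positive count lay near background and is no result about the list. That positive count was 1 without culture CD71+ library 2, tumour CD71− library 1 or tumour CD71+ library 2 and 5 with total counts, and the negative count was 2 without either culture CD71+ library, tumour CD71− library 2 or either tumour CD71+ library and with total counts. The glioma and neural list had 0 of 9 tested members called in the difference by edgeR or DESeq2, with 1 at an unadjusted p under 0.05, while 5 were called higher in tumour CD71+ (median tumour effect 1.77), at sums of 79.9 to 102 CPM in culture, 149 and 138 in tumour CD71− and 233 and 137 in tumour CD71+. The hemoglobin genes Hba-a1, Hba-a2 and Hbb-bt were at 0 counts in all 8 libraries. The erythroid list that holds them summed to 0 to 0.214 CPM in culture, 0.419 and 0.416 in tumour CD71− and 3.56 and 1.13 in tumour CD71+. Only 1 of its 10 members was tested, with a tumour effect of 2.58 that was not called. Lymphocyte markers summed to 1.6 to 3.36 CPM in culture, 3.36 and 4.58 in tumour CD71− and 14.6 and 20.7 in tumour CD71+. The part of macrophage, microglial, dendritic cell, lymphocyte, erythroid or neural RNA in the differences above was not tested.

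**Figure D4:**
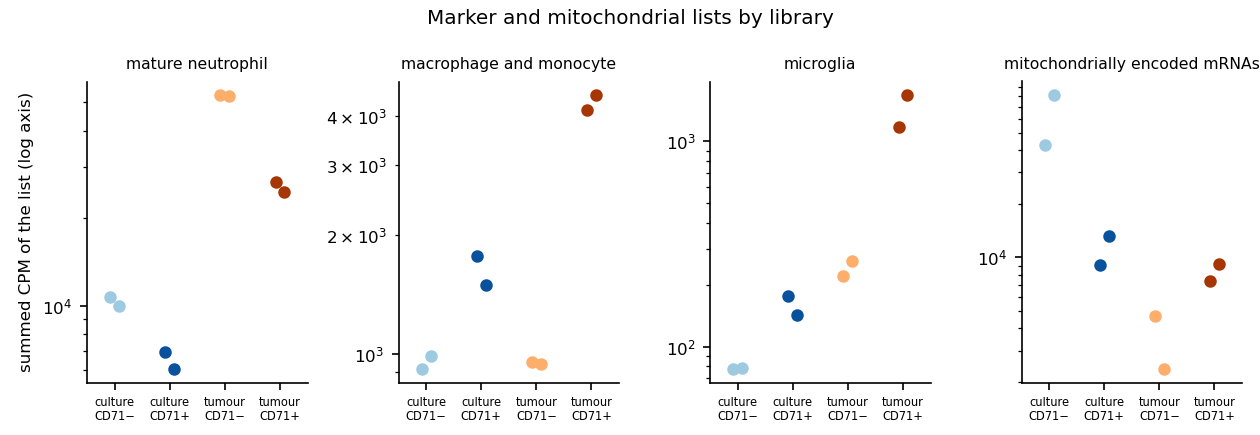
Summed CPM of 3 marker lists and of the 13 mitochondrial mRNAs in each library (y axis, log scale, a separate range in each panel). Macrophage and microglial sums are highest in tumour CD71+, where they reach 4510 and 1680 CPM, and mitochondrial mRNAs are highest in culture CD71−.

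The sign of the difference also moved with the kind of transcript. Among 12369 protein-coding genes 1629 were called positive and 536 negative, with a median difference of 0.31. Among 1023 transcripts of the annotation class TEC, which await experimental proof, 10 were positive and 95 negative, with a median of −0.66, −0.16 in tumour and 0.58 in culture. Sense-intronic transcripts showed the same order, with 1 positive and 9 negative of 181 and medians of −0.65, −0.24 in tumour and 0.62 in culture. The libraries were made from total RNA and so hold unspliced transcripts, and the part of unspliced RNA in the negative differences was not tested. Among genes described above, Maf, Mical3, Csf1r, Il1a, Il1b, Hif1a and mt-Co1 also overlap a transcript on the opposite strand, and Csf2rb, Hif1a and Ep300 share exon sequence with another gene on their own strand, so their counts carry the same uncertainty as those of Spns2. Genes with a positive difference stood higher in tumour than in culture at 172 of 1718 in CD71− cells and at 34.5% in CD71+ cells. Genes with a negative difference stood higher in tumour at 91.8% of 752 in CD71− cells and at 73.8% in CD71+ cells. Over all genes tested the shares were 44.8% in CD71− cells and 47.5% in CD71+ cells. These shares use the same libraries as the test and are a description.

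**Figure D5:**
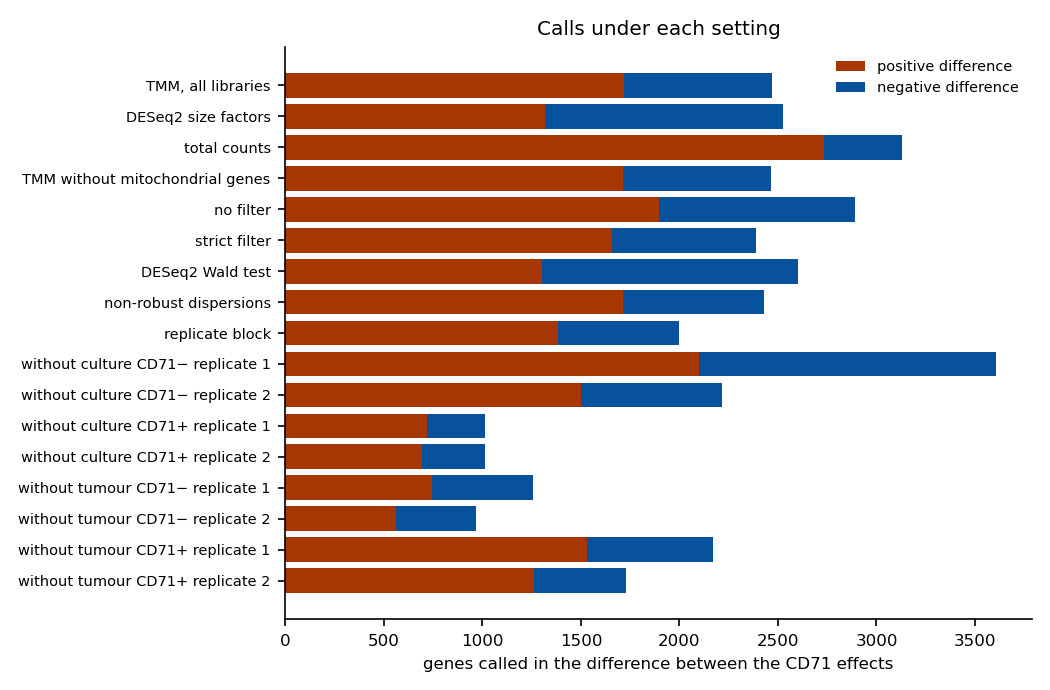
Number of genes called in the difference (x axis) under each scaling, filter, tool and left-out library, split into positive (brown) and negative (blue) differences. The count was 2470 with TMM and all libraries, and ran from 966 without tumour CD71− library 2 to 3609 without culture CD71− library 1.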

How the data were processed

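RNA-seq of 8 libraries of sorted neutrophils was analysed, 2 in each of 4 groups. The labels' protocols name a Zymo Microprep kit for total RNA and Illumina's stranded total RNA preparation, which removes ribosomal RNA. FastQC, cutadapt and STAR as well as featureCounts and DESeq2, on mouse build mm10, are listed in the submitters' processing notes, in no stated order; neither versions nor the strand setting of the counting are given in the sources used here. Values deposited by the authors are whole-number counts per gene, not normalized, for 55450 genes, of which 29244 had a count in any library. All gene IDs were found in GENCODE M21, used for coordinates and overlaps, and promoter windows came from RefSeq.

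Here edgeR 4.0.16 (R 4.3.3) was applied with filterByExpr, TMM scaling, robust quasi-likelihood dispersions and 4 group means; 15975 genes were tested, the common biological coefficient of variation was 0.19 and 4 residual degrees of freedom remained. Benjamini-Hochberg adjustment was made over all genes tested for each of the 3 contrasts (tumour effect, culture effect, their difference), and standard errors were the log2 fold change over the square root of F. The test was also run on counts simulated from its own fitted means and dispersions. Such counts cannot check the choice of scaling or an unequal spread between groups, and no conclusion is drawn from them. Depth was 9598959 to 22615813 counts, and 3 counts in a library, the limit that a count of 0 allows, correspond to 0.0916 to 0.419 CPM (counting error only).

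Genes named were Tfrc, 12 genes of the study's question, the largest differences with at least 5 CPM in 1 group within each class (10 of each sign for opposite, 3 for unequal, 5 for tumour alone and culture alone, 3 for neither), and up to 2 called members of each sign from each of 34 gene lists; not every one is named. Maf, Tent5c, Mmp13, Mical3, Cebpa, Abcc3, Aqp9, Gpr35, Cd69, Nr4a3, Thbs1, Il1rn, Tnf, Ccl6, Mrc1, Tmem119, Csf1r, Apoe, Npm1, Il1a, Aco1, Slc40a1, Fth1 and mt-Co1 were chosen after their values were seen. The members and lists were chosen with earlier results of these data known. Labels give replicate numbers, but same-numbered libraries of different groups correlated at −0.138 to 0.072 in their deviations from the group means, so the numbers were not taken to pair samples. Alternatives were other scalings, filters, DESeq2 1.42.0, non-robust dispersions, a replicate block and leaving out each library. The replicate block was 1 term shared by all 4 groups, so it cannot represent a pairing of CD71− and CD71+ libraries within tumour or culture separately.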

Additional observations from a re-analysis of the deposited data

Results flagged for a closer look

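The test of the difference itself picked out 2470 genes whose CD71 effect was not the same in tumour and in culture, among them 84 that rose in tumour and fell in culture and 91 that fell in tumour and rose in culture. Values are the tumour effect minus the culture effect on the log2 scale, all from edgeR's quasi-likelihood test with an adjusted p under 0.05.

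Opposite effects with a rise in tumour were found at Spns2 (5.45), Inpp4b (4.71), Ccdc107 (4.08), Maf (3.92), Mmp13 (3.74), mt-Co1 (3.64), Tent5c (3.60), Abcc3 (3.25), Cebpa (3.06) and Mical3 (3.04). Opposite effects with a fall in tumour were found at the receptors and surface proteins Itgax (−3.03), Olr1 (−2.15), Plaur (−2.07), Cd69 (−2.07), Csf2rb (−2.03), Aqp9 (−1.75) and Gpr35 (−1.68). The same class held the metabolic genes Slc7a11 (−2.40) and Abcg1 (−1.30), the nuclear factors Egr1 (−1.90) and Nr4a3 (−1.86), and Wfdc17 (−2.48), Hip1 (−2.20), Thbs1 (−1.54), Il1rn (−1.46), Ccl6 (−1.41) and Tnf (−1.09).

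Unequal effects of the same sign were larger in tumour at Arg1 (2.56), Ccl2 (2.07), Tmem119 (1.92), Mrc1 (1.72), Slc11a2 (1.40), Aco1 (1.36) and Msr1 (1.14) and larger in culture at Scd1 (−3.43) and H2-Eb1 (−2.10). Effects called in tumour alone differed at Ms4a7 (3.96), Cx3cr1 (3.54), Olfml3 (3.41), Apoe (3.31), C3ar1 (2.99), Fcgr1 (2.52), Ndufa9 (2.25), Mybbp1a (1.99), Npm1 (1.77), Rpl22 (1.65), Slc39a14 (1.61), Csf1r (1.45) and Havcr2 (1.36) on the positive side and at Cd14 (−1.48), Trem1 (−1.45), Traf1 (−1.19), Cd274 (−0.99) and Slc2a1 (−0.99) on the negative side.

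Effects called in culture alone differed at mt-Cytb (3.93) and S100a9 (1.62), which fell in culture, and at Spp1 (−2.77), Ccl4 (−2.18), Il1a (−2.11), Fosb (−2.10), Cd68 (−1.60), Cfp (−1.26), Hspa5 (−1.19), Gpnmb (−1.11) and Heatr1 (−1.10), which rose in culture.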

How the results depend on the processing

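The number of genes called in the difference was 2470, and it was 2528 with DESeq2 size factors, 3128 with total counts, 2601 by DESeq2's Wald test and 1998 with the replicate block. Leaving out 1 library gave 966 to 3609 calls, with 1012 to 1014 without a culture CD71+ library and 966 to 1255 without a tumour CD71− library; the group with 1 library left was assumed to vary like the others. In the same fits the tumour effect was called at 4495 to 7712 genes, the culture effect at 826 to 2880, opposite effects with a rise in tumour at 16 to 119 and with a fall in tumour at 24 to 233. Opposite effects with a fall in tumour were found at 145 genes with DESeq2 size factors, 143 by the Wald test and 20 with total counts. Asking for opposite signs alone, without a call in each effect, gave 879 and 612 genes of the 2 signs.

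Of 124 called genes named by the rule, 107 were called in each alternative other than leaving out a library and 57 in each alternative. The replicate block kept 1974 of the 2470 calls with the same sign. The 8 uncalled genes named by the rule changed sign, with no call, in 13 cases. Outside the rule, Slc40a1 turned to between −0.11 and −0.01 in 4 settings and Fth1 to 0.03 in 2. Vegfa turned to −0.08 with DESeq2 size factors, −0.07 by the Wald test, and −0.08, −0.01, −0.27 and −0.18 without culture CD71− library 2, culture CD71+ library 1, tumour CD71− library 2 and tumour CD71+ library 1 (range over left-out libraries −0.27 to 0.27). Ldha turned to 0.05 with total counts and 0.02 without culture CD71+ library 1 (range −0.43 to 0.02), and Il1b to 0.04 with total counts. Ep300 turned to −0.05 with DESeq2 size factors, −0.04 by the Wald test, and −0.05 and −0.19 without culture CD71− library 1 and tumour CD71− library 1 (range −0.19 to 0.25). The causes of these changes were not tested. With 2 libraries a group, 4925 genes had an unadjusted p under 0.05.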
